A study of Mus musculus with 12 samples.

Results

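CC chemokines are small secreted proteins, named for a pair of adjacent cysteines near the amino terminus, that bind G protein-coupled receptors on leukocytes and direct their migration. Macrophages are a main source of them in inflamed tissue and in tumours, and tumour cells can also make some of them. Each ligand binds one or a few receptors of the CCR family: Ccl2, Ccl7 and Ccl12 act on Ccr2, Ccl6 and Ccl9 on Ccr1, and Ccl17 and Ccl22 on Ccr4. Transcription of many of them is induced through NF-kB and AP-1 after signals from Toll-like receptors, interleukin 1 or tumour necrosis factor.

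The 10 genes described here, Ccl2, Ccl3, Ccl4, Ccl5, Ccl6, Ccl7, Ccl9, Ccl12, Ccl17 and Ccl22, were chosen by name. They are 10 of the 34787 gene names on the array, and each was measured by 1 probe. The choice was made with earlier results of these data known. Counts of members called are therefore a description beside the share of all genes, not a test against it. RNA levels were measured on 12 single-colour Agilent mouse arrays in 4 groups of 3. In the first group, RAW264.7 cells, a mouse macrophage line, carried an shRNA against ABHD5, a co-activator of triglyceride lipase, and in the second RAW264.7 cells carried the PLKO control vector. CT-26, a line from a colon carcinoma of the mouse, formed the other groups: the third was primed by the ABHD5 shRNA RAW264.7 cells and the fourth by the PLKO RAW264.7 cells. The labels give neither the way of priming nor how the CT-26 cells were kept apart from the macrophages. They do not say whether the 3 samples of a group were separate cultures, so the p-values measure the spread between these samples, which may be technical.

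Levels are given as log2 of the processed signal relative to the 75th percentile of the same array, so 0 is that percentile and each unit is a 2-fold step. A change is the difference of group means on that scale, and genes were called at a limma adjusted p of 0.05. Of all non-control spots, 56.5% to 77.3% were well above background on an array. RAW264.7 control replicates 1 and 2 shared a slide and had the lowest shares, 56.5% and 57.9%, while RAW264.7 control replicate 3 lay on the slide of the 3 knockdown arrays. All CT-26 arrays lay on the same slide. Abhd5 itself stood at 0.25, 0.23 and 0.39 in the RAW264.7 knockdown arrays, against 1.38, 1.93 and 1.52 in the RAW264.7 control arrays, with no overlap. Its change was -1.32 ± 0.20 (SE, limma adjusted p = 0.00344, n = 3 each). With slide as a block the change was -1.23 and the limma adjusted p 0.0553. All 15 macrophage markers examined, among them Spi1, Adgre1 and Csf1r, were well above background on every RAW264.7 array. In CT-26 arrays Spi1 and Adgre1 were not well above background on any array. Csf1r was well above background on every CT-26 array, at 0.39 to 1.15, and 11 to 13 of the 15 markers were so on each. Krt18, a keratin of simple epithelia, stood at 1.61, 1.73 and 1.99 in knockdown-primed CT-26 arrays and at 1.91, 2.64 and 2.73 in control-primed ones, and at -3.88 to -2.97 in RAW264.7 arrays. Cdh1, the epithelial cadherin, was not well above background on any of the 12 arrays. In such bulk samples, fewer cells of a type and less RNA per cell cannot be told apart.

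The members lay in clusters in the mouse genome (build mm9, probe positions from the file). Ccl2 (chr11:81850650-81850709), Ccl7 (chr11:81860656-81860715) and Ccl12 (chr11:81916764-81916823) lay on the plus strand, with 10 and 56.1 kb between neighbouring probes. Farther along chromosome 11 came Ccl5 (chr11:83339296-83339355, minus strand), Ccl9 (chr11:83388223-83388282, minus), Ccl6 (chr11:83401997-83402056, minus), Ccl3 (chr11:83461358-83461417, minus) and Ccl4 (chr11:83478052-83478111, plus). The gap between both chromosome 11 clusters, from Ccl12 to Ccl5, was 1422.5 kb. Ccl22 (chr8:97274709-97274768, plus) and Ccl17 (chr8:97335770-97335829, plus) lay 61.1 kb apart on chromosome 8. Whether a probe lies in an exon or an untranslated region was not examined here.

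In RAW264.7 macrophages the question was which of these ligands differed with ABHD5 knockdown. Ccl2, Ccl7, Ccl12, Ccl6 and Ccl17 rose, and none of the 10 fell. On the processed signals, the differences ranged from a 78.5-fold increase of Ccl2 and one of at least 266-fold of Ccl7 to a 1.57-fold increase of Ccl17. Those 5 of 10 stand beside 7.93% of the 25304 genes tested that rose, and 22.8% that were called in either direction. In each of the 10 members the 3 knockdown arrays all lay above the 3 control arrays, which held for 12.5% of all genes tested. The groups did not overlap in 52.2% of genes in either direction, and in 39.7% the knockdown arrays were all below the control arrays. Of the 5 calls, 4 (Ccl2, Ccl7, Ccl12 and Ccl6) were at least 2-fold, which held for 5.57% of all genes tested. The median change of the members was 0.71, against -0.30 over all genes tested. Ccl7 and Ccl12 entered the test through the knockdown arrays alone, and Ccl22 was well above background on 1 of the 3 control arrays, so the filter favoured a higher value in the knockdown for these members.

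**Figure D1:**
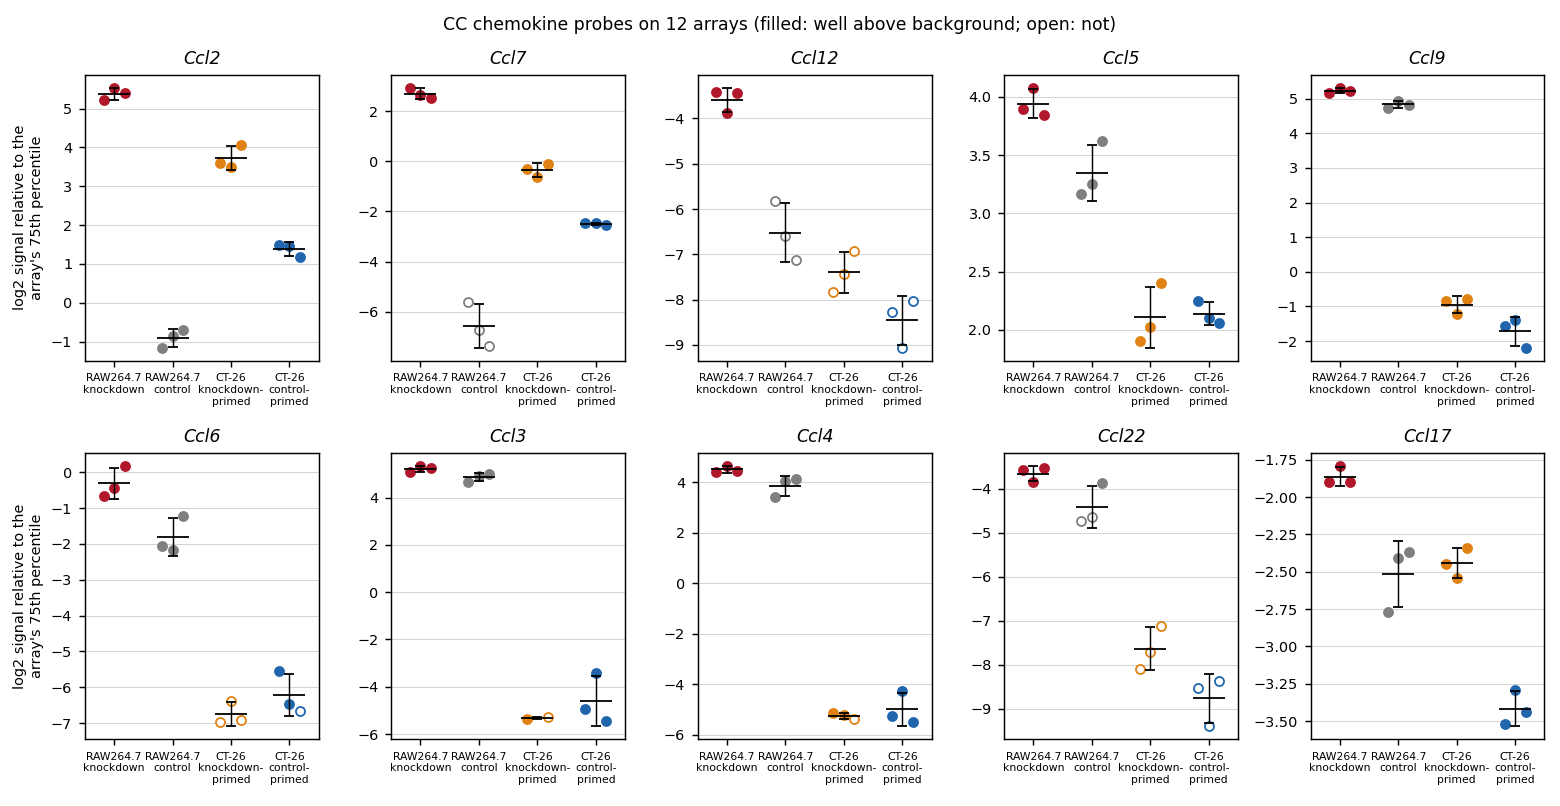
Level of each CC chemokine on every array, as log2 of the signal relative to the array's 75th percentile. Points are arrays, lines with bars are group means ± SD, and open symbols are arrays on which the probe was not well above background. Ccl2 and Ccl7 stand highest in RAW264.7 knockdown, next in knockdown-primed CT-26, and lowest in RAW264.7 control, where Ccl7 was not well above background.

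The monocyte chemoattractants Ccl2, Ccl7 and Ccl12 all rose. Ccl2, the main ligand of Ccr2, stood at 5.23, 5.54 and 5.40 in RAW264.7 knockdown arrays, against -1.16, -0.85 and -0.70 in RAW264.7 control arrays. Its probe was spotted 10 times on each array, and the spots of an array differed by an SD of 0.04 to 0.139. Thus the highest control array was far below the lowest knockdown array, and the gap was much wider than the spread of spots or of replicates. The change was 6.29 ± 0.19 (SE, 95% interval 5.85 to 6.74, limma adjusted p = 3.75e-06, n = 3 each), and it was called under each of the 15 alternative settings, at 6.09 to 6.51.

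Ccl7, which binds Ccr2 and also Ccr1 and Ccr3, stood at 2.94, 2.63 and 2.51 in RAW264.7 knockdown arrays, against -5.62, -6.71 and -7.35 in RAW264.7 control arrays. The control values were not well above background on any of the 3 arrays and are only an upper limit on the level, so the groups were separated by at least 266-fold. The fitted change, 9.26 ± 0.39 (SE, limma adjusted p = 4.87e-06), depends on how background is handled. After normexp background correction it was 6.96 log2 units, which is below the bound. The bound holds for the processed signals and compares the knockdown mean with the lowest signals among probes well above background on the control arrays.

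Ccl12, a ligand of Ccr2 in the mouse, stood at -3.42, -3.89 and -3.44 in RAW264.7 knockdown arrays and was well above background on each of them. In RAW264.7 control arrays it read -5.83, -6.60 and -7.13 and was not well above background on any. On the processed signals the increase was at least 3.43-fold (limma adjusted p = 0.000628, n = 3 each). After normexp correction the change was 1.22 log2 units, which is below that bound.

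Promoter sequences of RefSeq (GRCm38.p6) were matched for 6 of the 10 members, Ccl3, Ccl6, Ccl9, Ccl12, Ccl17 and Ccl22. Those of Ccl12 and Ccl9 are shown because Ccl12 rose in the knockdown, while Ccl9, also on chromosome 11, did not pass the test there. Each run is the 250 bases before the annotated start, read 5′ to 3′ on the gene's strand, and capitals mark the motif matches. Ccl12 covers chr11:82101595-82101844 on the plus strand and Ccl9 chr11:83578637-83578886 on the minus strand.
Ccl12: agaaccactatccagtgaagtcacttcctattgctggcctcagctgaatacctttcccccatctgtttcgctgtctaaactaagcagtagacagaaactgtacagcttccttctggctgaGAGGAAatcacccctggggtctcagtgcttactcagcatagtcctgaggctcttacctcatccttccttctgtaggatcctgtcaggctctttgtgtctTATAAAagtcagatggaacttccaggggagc
Ccl9: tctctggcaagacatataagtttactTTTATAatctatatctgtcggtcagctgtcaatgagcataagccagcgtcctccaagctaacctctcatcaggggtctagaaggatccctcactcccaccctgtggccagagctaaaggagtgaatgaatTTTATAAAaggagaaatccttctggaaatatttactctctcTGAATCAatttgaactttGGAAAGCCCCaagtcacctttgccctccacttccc
In Ccl12 the capitals are GAGGAA, the core bound by PU.1, the factor encoded by Spi1, at -130 to -125 from the start, and a TATA box at -31 to -26. In Ccl9 they are, toward the start, a TATA match at -224 to -219, a pair of overlapping TATA matches on opposite strands at -94 to -89 and -92 to -87, an AP-1 match at -53 to -47 and an NF-kB match on the opposite strand at -35 to -26. The search covered both strands for the NF-kB motif, TGANTCA for AP-1, TTGCNNAA for C/EBP, GAGGAA for PU.1 and TATAAA for the TATA box. Of 32851 mouse promoters of the same length, 7.25% held the NF-kB motif, 6.75% the AP-1 motif, 9.56% the C/EBP motif, 23.3% the PU.1 core and 12.4% TATAAA. Ccl3 and Ccl17 each held a PU.1 core, at -33 to -28 and -248 to -243, and Ccl6 and Ccl22 held none of the motifs in this window. A match is a description of letters, and no binding was measured.

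Ccl3, Ccl4 and Ccl5 were well above background on every RAW264.7 array, and none passed the test. Ccl3, a macrophage inflammatory protein that binds Ccr1, stood at 5.07, 5.32 and 5.25 in RAW264.7 knockdown arrays, against 4.67, 4.91 and 4.99 in RAW264.7 control arrays. Ccl4, its close relative, stood at 4.41, 4.65 and 4.46 in RAW264.7 knockdown arrays, against 3.41, 4.03 and 4.12 in RAW264.7 control arrays. Ccl5, which attracts T cells as well as monocytes, stood at 3.90, 4.08 and 3.84 in RAW264.7 knockdown arrays, against 3.17, 3.25 and 3.62 in RAW264.7 control arrays. In all 3 genes the groups did not overlap, but the gaps were small beside those of Ccl2 and Ccl7. The differences were 0.36 (95% interval -0.05 to 0.77, limma adjusted p = 0.153) for Ccl3, 0.65 (0.14 to 1.17, limma adjusted p = 0.0643) for Ccl4 and 0.59 (0.15 to 1.04, limma adjusted p = 0.0561) for Ccl5. All 3 were called after quantile normalization, at 0.89, 1.05 and 0.87. Centring each array on its median called Ccl4 at 0.87 and Ccl5 at 0.81. Without RAW264.7 control replicate 3, Ccl4 was called at 0.79 and Ccl5 at 0.73.

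Ccl6 and Ccl9 are ligands of Ccr1 in the mouse and lay 13.8 kb apart, and Ccl6 but not Ccl9 passed the test. Ccl9 stood at 5.17, 5.32 and 5.21 in RAW264.7 knockdown arrays, against 4.74, 4.94 and 4.82 in RAW264.7 control arrays, a difference of 0.40 (95% interval 0.02 to 0.78, limma adjusted p = 0.101). Ccl6 stood at -0.65, -0.45 and 0.18 in RAW264.7 knockdown arrays, against -2.07, -2.16 and -1.21 in RAW264.7 control arrays. In Ccl6 the highest control array was the one on the knockdown slide. The change of Ccl6 was 1.50 ± 0.31 (SE, 2.84-fold, limma adjusted p = 0.0146, n = 3 each). It was 0.90 with slide as a block (limma adjusted p = 0.224) and 0.90 within the slide shared by both groups, which held 1 control array (limma adjusted p = 0.144). Leaving out RAW264.7 control replicate 1 gave 1.38 and an adjusted p of 0.0508 in limma, and leaving out RAW264.7 knockdown replicate 3 gave 1.26 and 0.0564. For Ccl9, the call was made after median centring, at 0.62, and after quantile normalization, at 0.92.

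The Ccr4 ligands Ccl17 and Ccl22, which attract regulatory and type 2 helper T cells, gave 1 call in RAW264.7 cells. Ccl17 stood at -1.90, -1.79 and -1.90 in RAW264.7 knockdown arrays, against -2.77, -2.41 and -2.37 in RAW264.7 control arrays. The knockdown arrays were nearly level with each other and all above the control arrays. Its change was 0.65 ± 0.18 (SE, 1.57-fold, limma adjusted p = 0.0389, n = 3 each). The call was lost in 9 of the 15 alternatives, among them normexp correction (0.42), slide as a block (0.50, limma adjusted p = 0.346) and leaving out any 1 knockdown array or RAW264.7 control replicate 1 (limma adjusted p = 0.088 to 0.13). Ccl22 stood at -3.57, -3.85 and -3.53 in RAW264.7 knockdown arrays, against -4.74, -4.63 and -3.86 in RAW264.7 control arrays. The gap between the nearest arrays of the groups was within the spread of the control arrays. Its difference was 0.76 (95% interval 0.17 to 1.35, limma adjusted p = 0.0618), and it was called without RAW264.7 control replicate 3, at 1.03.

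**Figure D2:**
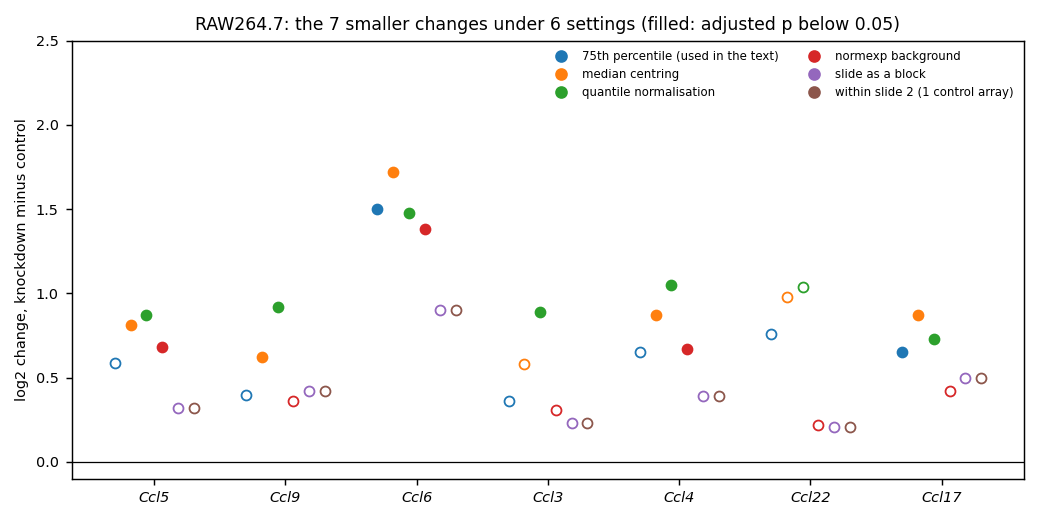
RAW264.7 change (knockdown minus control, log2 units) of the 7 members with the smaller changes, as used in the text and under 5 other settings. Filled points passed a limma adjusted p of 0.05 and open points did not. Ccl6 stands at 1.50 as used in the text and at 0.90 with slide as a block, and Ccl17 at 0.65 and 0.50.

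The second comparison asked which ligands differed in CT-26 cells between priming by knockdown and by control macrophages. Ccl2, Ccl7 and Ccl17 rose with priming by the knockdown macrophages, by 5.09-fold, 4.47-fold and 1.96-fold, and none fell. These 3 of the 7 members tested stand beside 3.14% of the 24823 genes tested that rose and 6.31% called in either direction. Neither CT-26 group had Ccl6, Ccl12 or Ccl22 well above background in all of its samples, and these were not tested. The median difference of the 7 members was 0.77, against 0.11 over all genes tested. In 4 of the 7, Ccl2, Ccl7, Ccl9 and Ccl17, every knockdown-primed array lay above every control-primed array, which held for 25.2% of all genes tested, and 36.2% did not overlap in either direction. The calls of Ccl2 and Ccl7 were at least 2-fold, which held for 0.516% of all genes tested.

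Ccl2 stood at 3.61, 3.51 and 4.07 in knockdown-primed CT-26 arrays, against 1.50, 1.46 and 1.19 in control-primed CT-26 arrays. Its change was 2.35 ± 0.19 (SE, 95% interval 1.92 to 2.78, limma adjusted p = 0.001, n = 3 each). Ccl7 stood at -0.29, -0.64 and -0.09 in knockdown-primed CT-26 arrays, against -2.47, -2.48 and -2.55 in control-primed CT-26 arrays. Both genes were well above background on all 6 CT-26 arrays, and in both the groups were separated by far more than their spread. The change of Ccl7 was 2.16 ± 0.17 (SE, 95% interval 1.77 to 2.55, limma adjusted p = 0.001, n = 3 each). Under the 13 alternative settings both calls were kept, Ccl2 at 2.18 to 2.46 and Ccl7 at 2.02 to 2.31.

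Ccl17 stood at -2.45, -2.54 and -2.34 in knockdown-primed CT-26 arrays, against -3.52, -3.29 and -3.44 in control-primed CT-26 arrays. The arrays of each group were close together and the groups stood apart. Its change was 0.97 ± 0.15 (SE, 95% interval 0.63 to 1.31, limma adjusted p = 0.0142, n = 3 each). The call was lost without the filter on dim probes (limma adjusted p = 0.0872), without control-primed CT-26 replicate 3 (0.0794) and without knockdown-primed CT-26 replicate 3 (0.0501).

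Ccl9 stood at -0.85, -1.22 and -0.77 in knockdown-primed CT-26 arrays, against -1.56, -1.39 and -2.19 in control-primed CT-26 arrays, without overlap. The difference of 0.77 (95% interval 0.25 to 1.29) did not pass (limma adjusted p = 0.0739). Ccl5 stood at 1.90, 2.02 and 2.40 in knockdown-primed CT-26 arrays, against 2.25, 2.10 and 2.06 in control-primed CT-26 arrays. The Ccl5 ranges overlapped, and the difference was -0.03 (95% interval -0.43 to 0.36, limma adjusted p = 0.915), so a difference as large as that of Ccl2 or Ccl7 lay outside its interval.

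Ccl3 and Ccl4 were near background in CT-26 cells. Ccl3 read -5.35 and -5.29 in 2 knockdown-primed CT-26 arrays, the spot of replicate 2 being an outlier on the scan and left out of the fit, against -4.94, -3.42 and -5.45 in control-primed CT-26 arrays. Ccl4 read -5.15, -5.23 and -5.38 in knockdown-primed CT-26 arrays, against -5.25, -4.25 and -5.49 in control-primed CT-26 arrays. In both genes control-primed replicate 2 was the highest array. Among the control-primed arrays, replicate 1 was highest in 6 of the 15 macrophage markers and lowest in 6, and replicate 3 highest in 3 and lowest in 6. On replicate 2, 5 of the 15 were highest and 3 were lowest. Lyz2 (-3.36, against -5.11 and -4.69 in the other control-primed arrays), Tyrobp (-4.49, against -5.83 and -5.59) and Laptm5 (-5.62, against -7.84 and -7.75) were among the 5. Itgam (5.67, against 5.51 and 5.61) and Fcgr3 (-4.14, against -4.21 and -4.35) were the rest. Ptprc (-3.37, against -2.78 and -3.32), Adgre1 (-8.8, against -8.72 and -8.36) and Mpeg1 (-2.49, against -2.19 and -2.34) were the 3. The ranks of Adgre1 and Spi1 are between background values. The part of these marker differences in the values of Ccl3 and Ccl4 was not tested. The difference of Ccl3 was -0.72 (95% interval -1.86 to 0.43, limma adjusted p = 0.357) and that of Ccl4 -0.26 (-0.91 to 0.39, limma adjusted p = 0.566). Without control-primed replicate 2 they were -0.12 and 0.12.

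**Figure D3:**
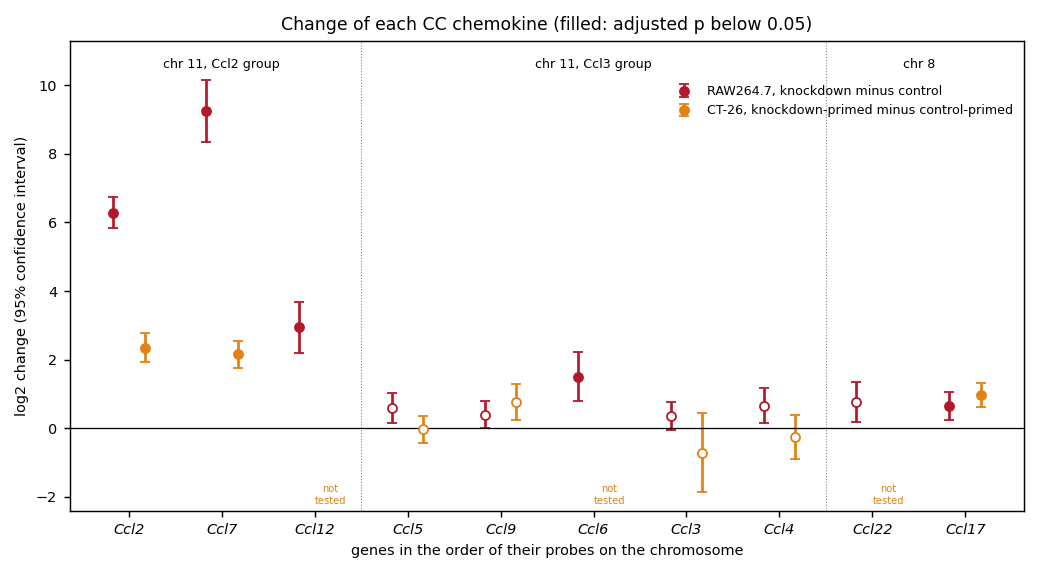
Change of each CC chemokine with its 95% interval, knockdown minus control in RAW264.7 cells and knockdown-primed minus control-primed in CT-26 cells, in log2 units. Filled points passed the test at a limma adjusted p of 0.05, and the RAW264.7 values of Ccl7 and Ccl12 are fitted values against a group below background. Ccl2 changed by 6.29 in RAW264.7 and by 2.35 in CT-26, while the interval of Ccl5 in CT-26, -0.43 to 0.36, spans 0.

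As a group, macrophage markers were lower in CT-26 than in RAW264.7 cells. Of the 15, 11 were well above background on each knockdown-primed CT-26 array and 12 or 13 on each control-primed array. Over all non-control spots, the share well above background was 67%, 63.8% and 59.3% in knockdown-primed CT-26 arrays. It was 73%, 77.3% and 68.3% in control-primed ones, and the part of this in the marker counts was not tested. The summed level of the 15 markers, as linear signal relative to the 75th percentile, was 57.7, 59.4 and 75.5 in knockdown-primed CT-26 arrays. In control-primed ones it was 55.6, 61.3 and 58.6. Itgam alone gave most of that sum, and its probe was also bright in RAW264.7 arrays. Without Itgam, a step chosen after its values were seen, the sum was 10.6, 8.67 and 8.11 in knockdown-primed CT-26 arrays, against 9.96, 10.4 and 9.67 in control-primed ones. The same sum was 285, 313 and 289 in RAW264.7 knockdown arrays and 238, 240 and 264 in RAW264.7 control arrays. In CT-26 cells 1 of 12 tested markers, Cd68, fell (-0.83 ± 0.15, SE, limma adjusted p = 0.0207) and none rose. The part of macrophage RNA in the CT-26 values was not tested. In RAW264.7 cells 5 of 15 markers rose beside the 5 chemokines, Fcgr3, Adgre1, Mpeg1, Lyz2 and Cd53, by 2.92, 2.86, 2.77, 1.88 and 0.84, and the part of this in the chemokine changes was not tested. Lyz2 and Cd53 lost their calls with slide as a block, and Cd53 also within the shared slide. Of 9 epithelial markers tested in each line, none was called in either. Of markers of other cell types in RAW264.7 cells, 1 of 5 of dendritic cells rose, Itgax, which was well above background on 1 of 3 control arrays. Of T and NK cell markers, 1 of 4 (Ncr1) fell, the call of Ncr1 being lost with slide as a block and within the shared slide. Of 4 fibroblast markers Dcn passed the test, but it was not well above background on any control array and no fold is given. In CT-26 cells 1 of 5 fibroblast markers (Pdgfrb) fell, and none of 5 T and NK cell markers or of 2 dendritic cell markers was called.

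The order of the 4 groups differed between members. Ccl2 and Ccl7 were highest in RAW264.7 knockdown, then in knockdown-primed CT-26, then in control-primed CT-26, and lowest in RAW264.7 control, where Ccl7 was below background, and neighbouring groups did not overlap. In Ccl9 the order was RAW264.7 knockdown, RAW264.7 control, knockdown-primed CT-26, control-primed CT-26, again without overlap. Ccl22 was higher in RAW264.7 knockdown than in RAW264.7 control and lowest in CT-26, where it was not well above background on any array and the 2 groups have no order. Ccl12 was highest in RAW264.7 knockdown, and in the other 3 groups it was not well above background on any array, so these have no order. In Ccl3, Ccl4, Ccl5 and Ccl6 both CT-26 groups overlapped each other below both RAW264.7 groups, Ccl6 being well above background on 2 of the 6 CT-26 arrays. Ccl17 overlapped between knockdown-primed CT-26 and RAW264.7 control, with RAW264.7 knockdown above and control-primed CT-26 below.

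The difference between CT-26 and the macrophage line varied widely from member to member. The lines were on different slides, so these values are a description. Among cells of the control arm, Ccl2 was 2.29 and Ccl7 4.06 log2 units higher in control-primed CT-26 than in RAW264.7 control, the RAW264.7 control level of Ccl7 being below background. Among cells of the knockdown arm, Ccl2 differed by -1.66 and Ccl7 by -3.04 between knockdown-primed CT-26 and RAW264.7 knockdown. Ccl3 and Ccl4 differed by -10.53 and -9.76 in the knockdown arm. Ccl3 was well above background on 1 of the 2 knockdown-primed CT-26 arrays used, and Ccl4 on 2 of 3, so these differences rest partly on background values. The 15 macrophage markers ranged from -11.61 (Laptm5, also at the floor in CT-26) to -0.1 (Itgam) in the same arm. Ccl5 and Ccl17 differed by -1.83 and -0.58.

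**Figure D4:**
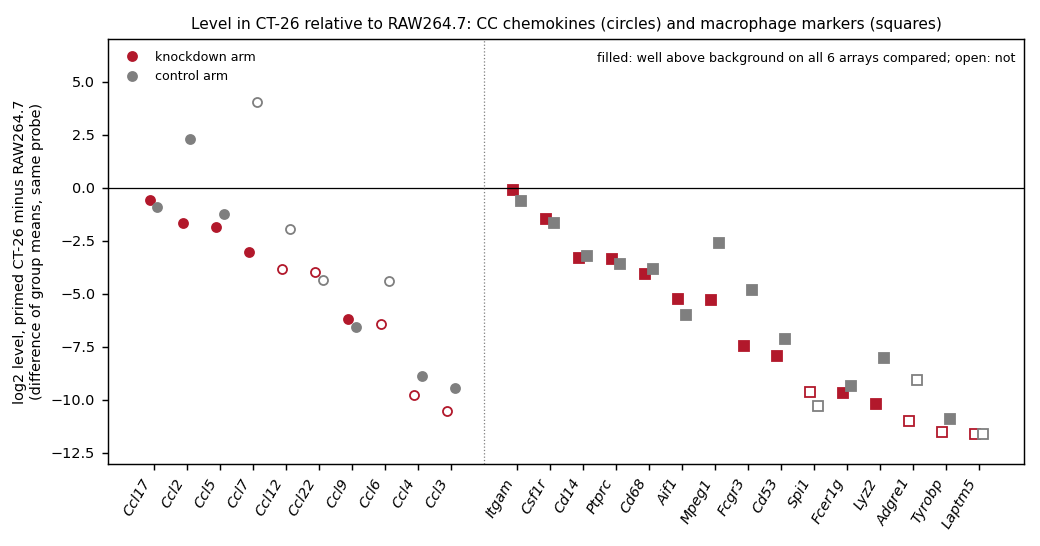
Difference between CT-26 and RAW264.7 cells for each CC chemokine and for macrophage markers, in log2 units, within the knockdown arm and within the control arm. Open symbols mark a probe not well above background on all 6 arrays compared. Ccl2 reads -1.66 in the knockdown arm and 2.29 in the control arm, while Ccl3 and Ccl4 lie at -10.53 and -9.76 in the knockdown arm, within the range of the macrophage markers.

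The changes in both lines were compared in a fit over all 12 arrays. The test called the change in RAW264.7 larger than that in CT-26 in Ccl2, Ccl7, Ccl6 and Ccl12, 4 of the 10 members, beside 7.43% of the 26885 genes tested that were called in that direction, 24% in the other and 31.4% in either. The difference of changes was 3.95 ± 0.27 (SE, 95% interval 3.35 to 4.54, limma adjusted p = 4.06e-06) for Ccl2. It was 7.10 ± 0.48 (SE, limma adjusted p = 3.34e-06) for Ccl7, with RAW264.7 control below background. For Ccl6, near background in CT-26, it was 2.03 (limma adjusted p = 0.0116), and 1.43 with slide as a block (limma adjusted p = 0.104). Ccl12 entered this fit through the RAW264.7 knockdown arrays alone. Its value of 1.88 (limma adjusted p = 0.0176), and 0.63 after normexp correction (limma adjusted p = 0.082), holds a CT-26 difference between background values, so nothing is read from its place in the count. The difference was -0.32 for Ccl17 (limma adjusted p = 0.272) and -0.37 for Ccl9 (limma adjusted p = 0.343), so neither change was shown to differ between the lines. For Ccl5 it was 0.63 (limma adjusted p = 0.0779).

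Other genes of the chemokine system were examined as lists. Over all genes tested, 7.93% rose and 14.9% fell in RAW264.7 cells, and 3.14% rose and 3.17% fell in CT-26 cells. In RAW264.7 cells, of 10 receptor genes tested 3 rose and 1 fell. Only 5 of the 10 were well above background on all arrays of both groups. The rest, Ccr1 and Ccr2 among them, entered through the knockdown arrays alone, so the filter favoured a higher value in the knockdown for these. Ccr1, the receptor of Ccl3, Ccl6, Ccl7 and Ccl9 among others, rose by 7.12 ± 0.63 (SE, limma adjusted p = 0.00019), with 1 of 3 control arrays well above background. Ccrl2, an atypical receptor, rose by 2.05 ± 0.18 (SE, limma adjusted p = 0.000215). Ccr2, the receptor of Ccl2, rose by at least 1.5-fold on the processed signals (limma adjusted p = 0.0028). Ackr1, a scavenging receptor, fell by 0.79 ± 0.21 (SE, limma adjusted p = 0.0322), a call lost after median centring, quantile normalization and with slide as a block. The list's median was -0.30, like that of all genes. Of the other CC ligands on the array, 7 were tested and 1 rose, Ccl24, an eosinophil attractant, by 1.51 ± 0.19 (SE, limma adjusted p = 0.00137). In CT-26 cells none of 7 other ligands was called, and of 7 receptors Ccr9, well above background on 1 of 3 knockdown-primed arrays, fell, by 0.92 ± 0.22 (SE, limma adjusted p = 0.0416).

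Among 11 genes of upstream signals in RAW264.7 cells, 6 rose and none fell, with a list median of 2.42. Of the 11, 8 were well above background on all arrays of both groups. The rest entered through the knockdown arrays alone and all rose, so the filter favoured a higher value in the knockdown for these. The cytokine genes Il1b and Il6 rose by 6.80 ± 0.28 and 5.33 ± 0.34, Il6 being well above background on 1 of 3 control arrays, and Tlr4, the lipopolysaccharide receptor, by 2.42 ± 0.22 (SE, limma adjusted p = 0.000208 for Tlr4). Tnf, named here after its value was seen, differed by 0.56 (limma adjusted p = 0.0727). In CT-26 cells 2 of the 11 rose and 1 fell, with Il6 at 1.04 ± 0.23 (SE, limma adjusted p = 0.0343), Myd88, a Toll-like receptor adaptor, at 0.66 and Tlr4 at -0.74. Il6 was dim there, averaging -4.7 in knockdown-primed and -5.75 in control-primed CT-26 arrays. It was well above background on only 2 of the 3 knockdown-primed arrays. The Tlr4 call in CT-26 was lost after median centring and quantile normalization.

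Of 19 transcriptional and RNA regulators, 4 rose in RAW264.7 cells, Rel, Irf4, Nfkbiz and Jun, and none fell. Rel, Irf4 and Jun rose by 1.88, 1.84 and 0.62 (limma adjusted p = 0.00038, 0.00258 and 0.0399). Nfkbiz averaged 1.46 ± 0.26 in RAW264.7 knockdown and 0.47 ± 0.23 in RAW264.7 control arrays (SD, n = 3 each, limma adjusted p = 0.0157). With slide as a block and within the shared slide, Rel and Irf4 were called and Nfkbiz and Jun were not. Irf4 was well above background on 1 of 3 control arrays. The NF-kB subunit genes Nfkb1 and Rela, named after their values were seen, differed by 0.02 and -0.01. In CT-26 cells 4 of 19 rose and none fell. They were Zc3h12a, which encodes an RNase that degrades cytokine transcripts (1.27 ± 0.16, SE, limma adjusted p = 0.00703), Nfkbiz, an atypical IkB protein (1.01 ± 0.17, SE, limma adjusted p = 0.0193), Irf3 (0.77) and Bcl3 (0.63). After quantile normalization 2 of these rose. The list medians were 0.10 in RAW264.7 and 0.28 in CT-26.

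Genes for proteases and other proteins that cut or hold chemokines were tested in 8 cases in RAW264.7 cells, of which 5 rose and none fell, with a list median of 2.08. Only 2 of the 8 were well above background on all arrays of both groups, so the filter favoured a higher value in the knockdown here. Mmp9, a gelatinase, rose by 7.08 ± 0.29 (SE, 2 of 3 control arrays well above background) and Mmp12 by 5.01 ± 0.60 (SE, 1 of 3). The collagenase Mmp13 rose by at least 6.7-fold on the processed signals (limma adjusted p = 0.000244). In CT-26 cells 1 of 6 fell, Mmp13, by 0.88 ± 0.19 (SE, limma adjusted p = 0.0333), and none rose.

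The genes with profiles most like those of single members were ranked by the root mean square difference of centred levels over the 12 arrays, among 15786 genes. For Ccl2, whose own profile had a root mean square of 2.39, the nearest were Serpinb2 (0.89), Lif (1.07) and Bdh2 (1.17). For Ccl7, with 3.39, they were Cxcl3 (1.22), Serpinb2 (1.41) and Bdh2 (1.75), so Serpinb2 and Bdh2 stood near both. For Ccl4, with 4.67, they were Atf3 (0.26), Arhgap25 (0.32) and Slc6a12 (0.33). The genes nearest to Ccl9 were Zbtb32 (0.24), Pld4 (0.27) and Snx20 (0.27), with 3.20 for Ccl9 itself. For Ccl5 (0.81) they were Atp6ap1l (0.20), Prkcd (0.20) and Gripap1 (0.21), and for Ccl17 (0.57) Cmtm2a (0.20), Mip (0.21) and Rbm4 (0.21). For Ccl3 (4.97, over 11 arrays) they were Raet1a (0.57), Raet1e (0.59) and Fam167b (0.61). These measures are a description over arrays that share groups and slides.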

How the data were processed

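Scanner files give a linear intensity per spot, background-subtracted by Agilent Feature Extraction 10.7.3.1, per the file headers and the submitters' processing notes. The deposited value table holds log2 values for RAW264.7 and linear intensity values for CT-26, and served as an alternative only. Its columns, on a log2 scale, were each set to their own 75th percentile before they were compared with the scanner values. Here the log2 of the processed signal minus each array's 75th percentile was used, without control and outlier spots, with spots of a probe averaged. Each gene was represented by its brightest probe among those well above background on all 3 arrays of any group. A gene was tested if its probe passed that detection limit in every sample of at least 1 compared group, or of any of the 4 groups for the difference of changes. Tests were limma 3.58.1 (R 4.3.3) fits with Benjamini-Hochberg adjustment over all genes tested, one per comparison and one over 12 arrays. A bound ("at least") sets the bright group's mean against the dim group's mean of, per array, the higher of the lowest signal well above background and the probe's own.

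Probe coordinates are mm9, as in the scanner files. Of 55681 probes, 26762 were named through their accession in RefSeq, 4458 by symbol, and 24461 kept the design's name. The members and gene lists were chosen with earlier results of these data known. The text names all members, Abhd5, up to 4 genes per list and comparison with the smallest p, markers, and the 3 genes most like a member; promoters and motifs were chosen with the members' values in view. Alternatives were normexp background correction with an offset of 50, median centring, quantile normalization, no filter on dim probes, the mean of a gene's probes, the deposited table, replicate number or slide as a block, 1 slide alone, and leaving out each array. In simulated data 100 genes changed by 1 log2 unit and 100 by 2, far fewer than were called in the data. The RAW264.7 fit over 25304 genes recovered 19% of changes of 1 log2 unit and 79% of changes of 2. For the CT-26 fit over 24823 genes the shares were 50% and 91%. With so few genes changed, these shares are not the power of the fits reported here. The number of arrays limits the precision.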

Additional observations from a re-analysis of the deposited data

Results flagged for a closer look

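In 4 members the change in RAW264.7 (knockdown minus control) differed from the change in CT-26 (knockdown-primed minus control-primed) by the test of the difference itself. The RAW264.7 change exceeded the CT-26 change by 3.95 log2 units in Ccl2 (limma adjusted p = 4.06e-06) and by 7.1 in Ccl7 (limma adjusted p = 3.34e-06). The excess was 2.03 in Ccl6 (limma adjusted p = 0.0116), whose CT-26 means differed by -0.53 near background. It was 1.88 in Ccl12 (limma adjusted p = 0.0176), whose CT-26 means differed by 1.06 below background. The RAW264.7 control level of Ccl7 and of Ccl12 was not well above background on any array, so the size of these differences depends on how background is handled. Cell line and slide cannot be told apart in these differences. Groups of 3 arrays were too small for a test of single outlying arrays.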

How the results depend on the processing

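In RAW264.7, Ccl2, Ccl7 and Ccl12 were called under each of 15 alternatives, and in CT-26 Ccl2 and Ccl7 under each of 13. These alternatives are not independent. The mean of probes left the changes as they were, since each member had 1 probe. Slide as a block gave the same RAW264.7 changes as the shared slide alone (6.09 for Ccl2), both resting on 1 control array. The RAW264.7 count of members that rose, 5 in the main setting, was 8 after median centring, 9 after quantile normalization, and 3 without the filter on dim probes, with slide as a block and within the shared slide, whose lone control array was assumed to vary like the knockdown arrays. It was 3 to 8 with 1 array left out, 3 without control replicate 1 or knockdown replicate 3 and 8 without control replicate 3. No member was called lower in the main setting or with an array left out. The RAW264.7 count of all genes called, 5777, was 3809 after median centring, 2617 without the filter, 1162 with slide as a block and 1859 within the shared slide. It was 1681 to 7364 with 1 array left out, with 2770 without control replicate 1 and 2665, 1956 and 1681 without knockdown replicates 1, 2 and 3. In CT-26, 2 or 3 members rose with 1 array left out, against 3 with all. All CT-26 genes called, 1567, numbered 40 without the filter and 92 to 3009 with 1 array left out, with 3009, 607 and 232 without knockdown-primed replicates 1, 2 and 3 64 higher and 201 lower without control-primed replicate 2, and 92 without control-primed replicate 3. The difference of changes was called higher in 4 or 5 members with 1 array left out. Over all genes it was called in 8454, in 2381 with slide as a block, and in 5084 to 10113 with 1 array left out, with 5367 without RAW264.7 knockdown replicate 3, 5421 without knockdown-primed replicate 3 and 5084 without control-primed replicate 3. The Ccl6 difference lost its call with slide as a block (1.43, limma adjusted p = 0.104), and that of Ccl12 after normexp correction (0.63, limma adjusted p = 0.082). The causes were not tested.

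Of calls in RAW264.7, 34.7% were higher in the main setting, 62.5% after median centring, 53.9% after quantile normalization, 22.9% after normexp correction, 76.6% with slide as a block and 65.3% within the shared slide. In CT-26 it was 49.8%, 62.9% after median centring, 64.6% after normexp correction, 62.5% without the filter and 31.4% with the replicate block. For the difference of changes it was 23.6%, 34.3% after median centring, 41.4% after quantile normalization, 13.8% after normexp correction, 16.1% without the filter and 45.1% with slide as a block. The median change of all RAW264.7 genes moved by the scaling, with -0.304 in the main setting and -0.085 after median centring.

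Directions reversed only in values that had not passed the test. In CT-26 these were Ccl3 with the deposited table (0.47), Ccl4 after normexp correction (0.19) and without control-primed replicate 2 (range with 1 array left out -0.50 to 0.12), and Ccl5 after median centring (0.01) and with 1 array left out (-0.18 to 0.07). In the difference of changes they were Ccl3 with the deposited table (-0.08), Ccl9 after quantile normalization (0.09) and Ccl22 after quantile normalization (0.87). The replicate numbers did not pair the samples. Deviations of arrays with the same number correlated at -0.01, 0.04 and -0.02 in RAW264.7 and at -0.11, -0.21 and -0.05 in CT-26. With the replicate block, 4 members rose in RAW264.7 (Ccl17 had a limma adjusted p of 0.0563), 3 rose in CT-26 and 4 differed between lines, with 4785, 891 and 6137 genes called.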

Other observations

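The deposited value table has 12 columns, and 7 of them matched the scanner file of their own sample best. The other 5, all of CT-26 arrays, matched another replicate of the same group, so the groups but not the replicate numbers agreed between the table and the scanner files.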
